A study of Mus musculus with 2 samples.

Results

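The YTHDF2 peaks of Nfat5 are the members of the deposited peak list that overlap the gene body on chromosome 8 from 107293470 to 107379517 (mm10, forward strand, GENCODE M21) by at least 1 bp. There were 32 such peaks among the 9271 of the list. The gene was selected on its number of peaks in these data, which was high for its length of 86048 bp, so that number and the density that follows from it describe the choice and are not findings. The study immunoprecipitated RNA bound to YTHDF2 (RNA immunoprecipitation, RIP) from wild-type C2C12 cells, 1 mouse myoblast line that fuses into myotubes, after 4 to 5 days in 2% horse serum. It compared 1 YTHDF2 RIP library with 1 input library, both of batch 1 and with no further treatment. Both were sequenced with 150-base paired-end reads, and an IgG control that the design names is not analysed here. Each group is 1 library without a replicate, so no test was made and every comparison is a description. The gene was named from its coordinates: the authors' table of peaks with genes, which holds peaks on coding sequence, start and stop codons and untranslated regions, does not list Nfat5.

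NFAT5, also called TonEBP, is a transcription factor with the Rel homology DNA-binding domain that it shares with the NFATc and NF-kappaB proteins. It does not depend on calcineurin as the NFATc proteins do, and it is best known for switching on osmolyte transporters and chaperones when cells meet hypertonic medium. In muscle it has been linked to the migration and differentiation of myoblasts. YTHDF2 is a cytoplasmic protein that reads N6-methyladenosine (m6A) in RNA and recruits the deadenylation machinery.

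Peak numbers run from 1 to 32 in the direction of transcription. The sequence of 1 peak is shown because the values below turn on it, from the forward strand of GRCm38.p6 (RefSeq) with 1-based positions. Peak 12 (chr8:107329106-107329379) had the highest fold enrichment of the gene, and its capitals mark the 21 bases centred on its summit.
peak 12: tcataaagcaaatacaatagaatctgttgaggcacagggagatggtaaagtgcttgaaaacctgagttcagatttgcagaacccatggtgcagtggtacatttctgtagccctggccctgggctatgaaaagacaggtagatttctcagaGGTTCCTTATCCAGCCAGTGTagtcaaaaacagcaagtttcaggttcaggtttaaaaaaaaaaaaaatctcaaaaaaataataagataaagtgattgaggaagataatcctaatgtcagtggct

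All 32 peaks lay wholly inside introns of Nfat5-214, a protein-coding transcript with 15 exons that spans the gene. None touched an exon of any of the 7 annotated protein-coding transcripts, although those exons make up 15.6% of the gene. A count of 0 of 32 allows a share of up to 9.38%, for counting error only. That limit treats the peaks as independent, which peaks of 1 gene in 1 library need not be. Over the whole list, 18.1% of the 8778 peaks in bodies of protein-coding genes touched such an exon (Wilson 95% interval 17.3 to 18.9%). A lack of exon contact is common among genes with many peaks: of the 138 protein-coding genes with at least 10 peaks, 69 had no peak on an exon of a protein-coding transcript, and the median share was 0.629% of their peaks. Exons are a smaller part of those genes, with a median of 4.54% of bases.

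The 5 peaks numbered 8 to 12 lay over the last exon of Nfat5-212, a transcript of the retained-intron class. That exon runs from 107324639 to 107329307 and is 4669 bp long. It opens with the sequence of exon 3 and reads on into intron 3. These peaks were 15.6% of the 32 (Wilson 95% interval 6.86 to 31.8%), where 22.6% of peaks in protein-coding bodies of the whole list touched an exon of some transcript. The other 27 touched no exon of any of the 14 annotated transcripts. No other annotated gene overlaps Nfat5. Peaks carry no strand, and the protocol does not say if DNA was digested, so fragments of unspliced RNA, of antisense RNA and of DNA cannot be told apart here.

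Distances to exons of protein-coding transcripts varied widely. The median peak lay 2887 bp from the nearest exon of a protein-coding transcript, with quartiles of 712 and 5733 bp. Peak 1 was nearest, 43 bp past exon 2, and peak 5 was farthest, at 13128 bp. Only 5 peaks lay within 500 bp of such an exon and 10 lay more than 5000 bp away. Introns 2 and 3, which held 7 and 14 of the peaks, are themselves 29004 and 14044 bp long. Distances of intron sequence without peaks were not measured, so these values have nothing to be set against.

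**Figure D1:**
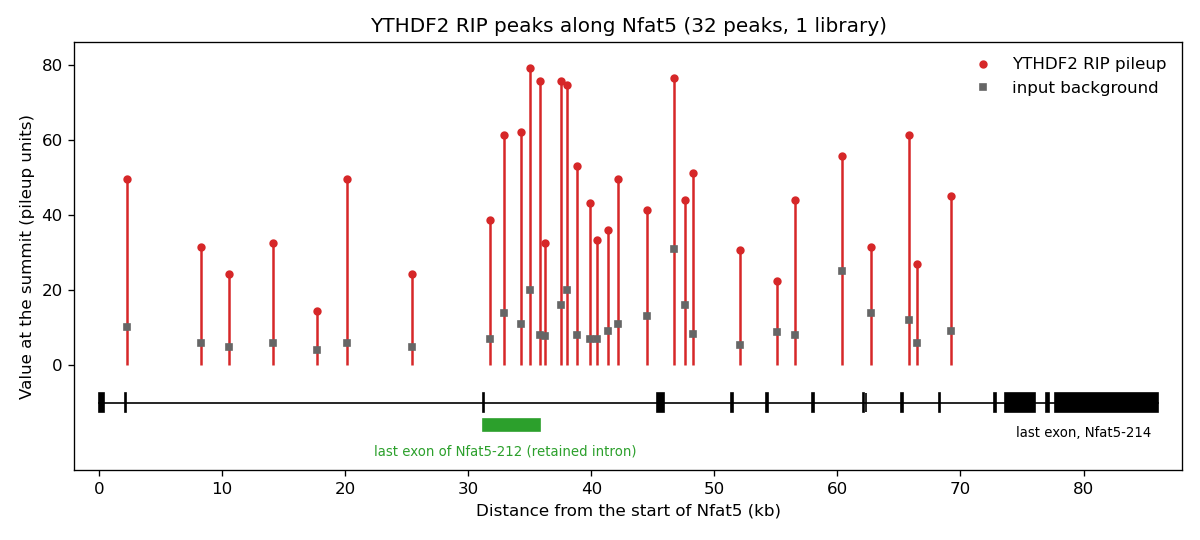
Summit pileup of the YTHDF2 RIP library (red) and the local input background computed from the fold (grey) for each of the 32 peaks, in pileup units, against distance from the start of the gene in kb. Below, exons of Nfat5-214 are black and the last exon of the retained-intron transcript Nfat5-212 is green. Red points stand above grey at every summit, as the calling of a peak requires. Of the 32 summits 17 lie between 30 and 50 kb, and the last exon has no peak.

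Peaks were spread over 9 of the 14 introns of Nfat5-214. Intron 3, from 107324765 to 107338808, held 14 peaks in 14044 bp, which is 9.97 per 10 kb, and peaks covered 34.2% of it. Intron 2, the longest at 29004 bp, held 7 peaks, or 2.41 per 10 kb, and 5.93% of it was covered. Peak density along the gene was thus uneven, with the shorter of these introns holding the larger number.

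Introns 4 to 11 held the other 11 peaks. There were 3 in intron 4, 2 each in introns 6 and 10, and 1 each in introns 5, 7, 9 and 11. Introns 1, 8, 12, 13 and 14 had none, and they were the short ones: the longest of them is 1682 bp, whereas the shortest intron with a peak is 2688 bp. Peaks covered 11.5% of the whole gene, 9923 bp in all.

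The run of peaks stopped before the end of the gene. Peak 32 ended at 107362762, and the 16755 bp from there to the gene's end, 19.5% of its length, held no peak. That stretch carries exons 12 to 15 of Nfat5-214, 11253 bp of exon in all. Among them are exon 13, at 2503 bp the largest before the last, and the last exon, which is 8359 bp long, runs from 107371158 to 107379516 and has 0 coding bases in this transcript. The list gives the input background only where a peak was called, so the coverage of either library over these exons is not known here.

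Nothing was called close to the gene on either side. The nearest peak upstream (pileup 24.3, fold enrichment 4.63) ended 233198 bp before the gene start. The nearest downstream (pileup 32.4, fold enrichment 2.57) began 33288 bp past its end, in Nob1, a ribosome biogenesis endonuclease with 2 peaks. The neighbouring protein-coding genes Cyb5b, an outer mitochondrial membrane cytochrome, and Nqo1, a quinone reductase, had 0 peaks in 36832 and 14982 bp. The run of peaks therefore began and ended inside Nfat5, with 2207 bp before the first of them.

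Between neighbouring summits the median distance was 1477 bp over 31 pairs, with quartiles of 805 and 3075 bp. The shortest was 450 bp, between peaks 12 and 13, and the longest 6377 bp, between peaks 7 and 8, across exon 3. Summits lay under 1000 bp apart in 11 pairs and under 2000 bp in 16. The gene has 1 peak per 2689 bp, a length that includes the 16755 bp without a peak at its end.

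Spacing changed along the gene. The first 30 kb held 7 summits with a median distance of 3577 bp. From 30 to 50 kb there were 17 summits, 8.50 per 10 kb, and the median distance was 840 bp. From 50 to 70 kb there were 8 summits at a median distance of 2766 bp. The most summits in any 10 kb of Nfat5 was 12, from 107325263 to 107334827. None of the other 137 genes with at least 10 peaks had as many in 10 kb: Luc7l2 reached 10 and Brinp3 9. Since the gene was selected on peaks that are many for its length, this place describes the choice and is not a finding.

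**Figure D2:**
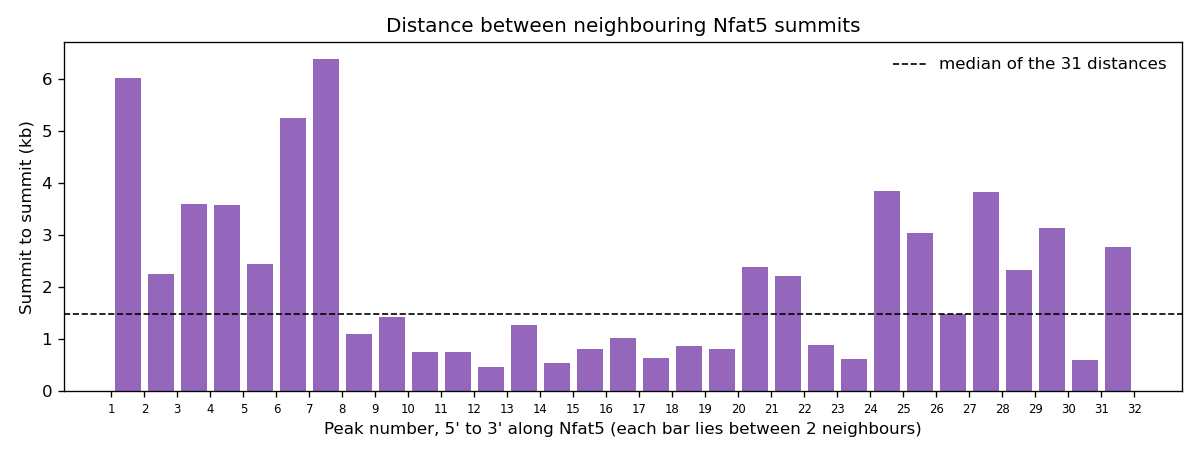
Distance in kb from each summit to the next, for the 31 pairs of neighbours in order along the gene, with the median of 1477 bp as a dashed line. All 12 bars between peaks 8 and 20 lie under the median, and the highest bar, 6377 bp, stands between peaks 7 and 8.

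Pileup counts the RIP fragments over a summit, scaled by the peak caller so that 1 fragment adds 0.9. Fold enrichment is the pileup over the local input background, a linear ratio with 1 added to both. The median Nfat5 peak had a pileup of 44.1, or 49 RIP fragments, over an input background of 8.53, and a fold enrichment of 4.31 (quartiles 3.62 and 4.96). Medians of the whole list were 26.1, 29, 5.00 and 4.40 in the same order. Pileup was above the list median in 28 of 32 peaks and background in 29, while fold enrichment was above it in 15. Nfat5 peaks thus stood out from the list by more RIP fragments and a higher input background, and not by a higher ratio of RIP to input. They were also wider, with a median of 287.5 bp (range 186 to 590 bp) against 229 bp in the list.

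The highest pileup was 79.2, from 88 fragments, at peak 11 in the retained intron, but its input background was also high at 20.0, and its fold enrichment was 3.82 (95% counting interval 3.07 to 4.69). Peak 12, the next one along, had a pileup of 75.6 from 84 fragments over a background of 7.92, which gave 8.58 (6.87 to 10.6) and a −log10 q-value of 40.0. Peak 22, in intron 4, had a pileup of 76.5 over a background of 31, the highest of the gene, and a fold enrichment of 2.42 (1.94 to 2.99). Pileups of like height therefore went with unlike folds, since the background below them differed. The intervals hold the background fixed and leave out the counting error of the input, so they cannot set these folds apart.

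With background held fixed, 27 of the other 31 peaks had an interval wholly below that of peak 12. The error of the input is not in these intervals. The 4 that overlapped it were peak 6 in intron 2, at 7.21 (5.47 to 9.35) from 55 fragments, peak 16 at 6.01 (4.60 to 7.72), peak 24 at 5.62 (4.28 to 7.24) and peak 17 at 5.52 (4.10 to 7.27). At the other end stood peak 29 in intron 9 at 2.17 (1.53 to 2.99), peak 28 in intron 7 at 2.18 (1.68 to 2.79), peak 26 in intron 6 at 2.41 (1.60 to 3.51) and peak 22. Intervals of 3 peaks lay above the list median of 4.40, those of 6 lay below it, and 23 held it.

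The levels of the introns overlapped. In intron 3 pileup ranged from 32.4 to 79.2 and fold enrichment from 3.03 to 8.58, and in intron 2 the ranges were 14.4 to 49.5 and 3.08 to 7.21. Intron 4 had pileups of 44.1 to 76.5 with folds of 2.42 to 5.62. The lone peaks of introns 5, 7, 9 and 11 had pileups of 30.6, 55.8, 31.5 and 45.0 and folds of 4.96, 2.18, 2.17 and 4.60. Those of introns 7 and 9 were the lowest folds of the gene. Both introns with 2 peaks in the later part of the gene held unequal ones: pileups of 22.5 and 44.1 in intron 6, and of 27.0 and 61.2 in intron 10, whose folds of 4.03 and 4.78 were closer.

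The weakest calls by q-value were peak 5, at 17.7 kb, and peaks 26, 28 and 29, from 55.1 to 62.7 kb. Peak 5, in the middle of intron 2, rested on 16 fragments, the fewest, over the lowest background of 4.0, with a fold enrichment of 3.08 (1.85 to 4.88) and a q-value of 0.0106. Peaks 26 and 29 had q-values of 0.0206 and 0.0130, and peak 28 one of 9.88e-05. The remaining 28 had q-values of 1e-05 or less, all as the authors' caller gave them.

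**Figure D3:**
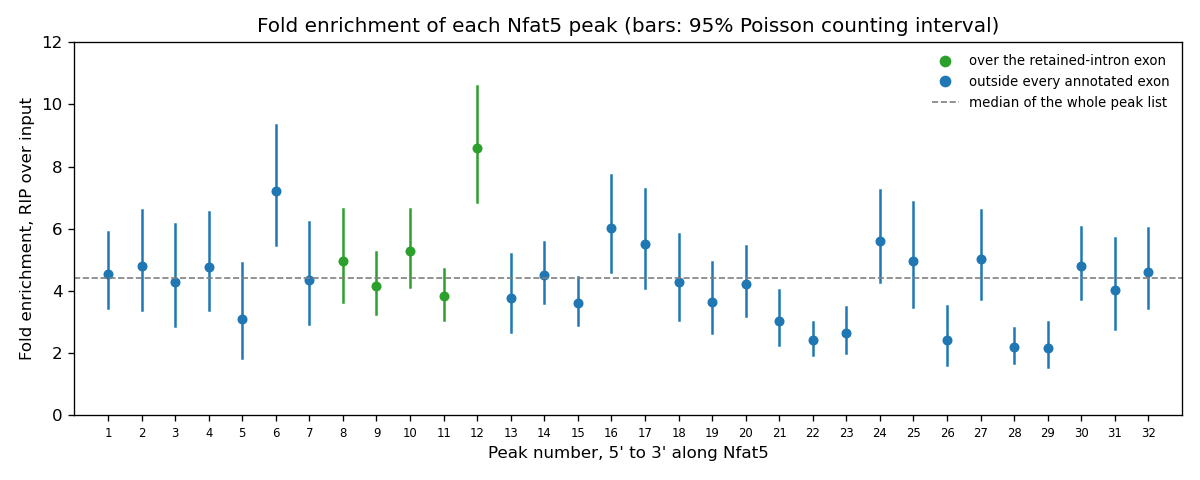
Fold enrichment of RIP over input for each peak in order along the gene, with 95% Poisson counting intervals of the RIP fragments (background held fixed). Green points lie over the retained-intron exon, blue points outside every annotated exon, and the dashed line is the list median of 4.40. Peak 12 stands highest at 8.58, and 4 peaks of the second part of the gene lie under 2.5.

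By stretch of the gene, levels moved together in both libraries. In the first 30 kb pileup ranged from 14.4 to 49.5 and background from 4.00 to 10.1. From 30 to 50 kb pileup ranged from 32.4 to 79.2 and background from 7.01 to 31. From 50 to 70 kb the ranges were 22.5 to 61.2 and 5.38 to 25. Median folds of the same stretches were close, at 4.54, 4.21 and 4.31. The dense middle of the gene thus had more RIP fragments over a higher input background, with overlapping ranges of fold.

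Peak 12 lay across the annotated end of Nfat5-212: 202 of its bases fall inside the last exon and 72 beyond it. Its summit was 41 bp before that end, and a genomic run of 14 A begins 2 bp past it. Runs of at least 10 A on the gene's strand stood in 4 of the 32 peaks, numbers 11, 12, 14 and 20, or 12.5%. Of 179 intron windows of 288 bp without a peak base, 3.35% held one. Runs of at least 10 T stood in 3 peaks (9.38%) and in 7.26% of those windows. Peaks 11, 14 and 20 are 407, 380 and 400 bp wide and peak 12 is 274 bp. Shares of peaks and windows are therefore not at like lengths. The search for runs was made after the sequences were seen. The longest run of A, 20 bases, was in peak 11, the peak of highest pileup. The part of such runs in the pileup was not tested.

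Repeats took a larger part of the peaks than of the introns around them. Bases that RefSeq's soft-masked sequence marks as repeats made up 52.1% of the peaks and 39.3% of intron sequence outside them. Within single peaks the masked share ranged from 7.12 to 89.1% with a median of 58.6%. It passed 50% in 19 of 32 peaks (59.4%) and in 31.3% of the intron windows. Peak 12 was 47.4% masked and peak 6 87.6%. How reads that match several places were treated is not given in the sources used here, and its part in these shares was not tested.

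Peaks of the gene also shared sequence with each other. Of the 32, 18 held an identical run of at least 16 bases with another Nfat5 peak on either strand. Such runs joined the 18 into 1 group, in which many peaks were linked only by way of others. Of the 496 pairs of peaks, 60 shared a run, and peak 18 had 1 partner. All of these runs are shorter than the 150-base reads. Among the 179 intron windows, 39.7% shared such a run with another window and 24.6% with a peak. Each window had more possible partners among the windows than a peak had among the peaks, so the first of these shares is not a like measure.

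The 18 peaks with shared sequence had a median masked share of 72.7%, and the 14 without had 29.6%. Their median fold enrichments were 4.42 and 4.21, and both sets had a median pileup of 44.1. Each set reached both high and low folds: 2.18 to 7.21 in peaks with shared sequence and 2.17 to 8.58 in those without. The part of shared sequence in the height of peaks was not tested. Since each of these 18 members shares sequence with at least 1 other, they cannot be counted as independent sites.

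**Figure D4:**
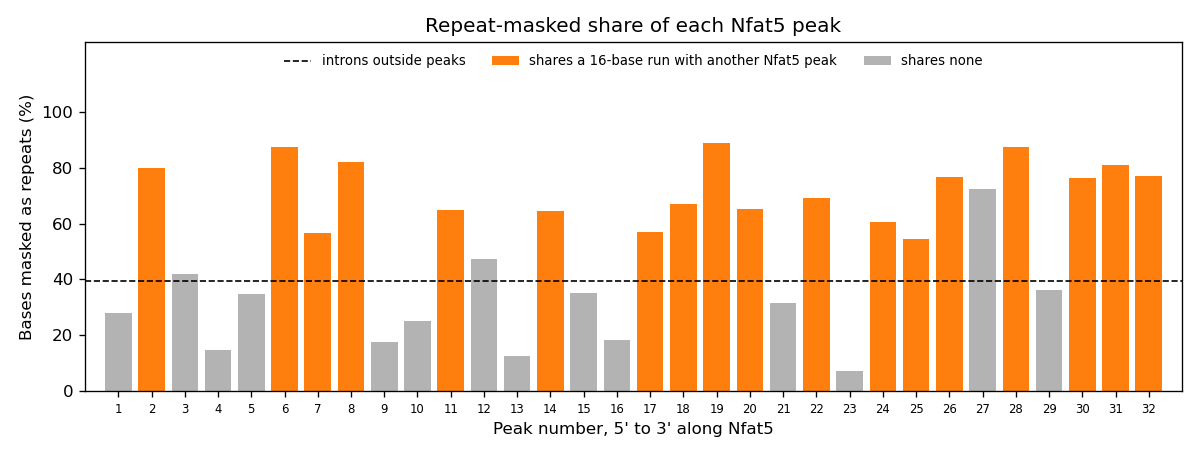
Percent of bases masked as repeats in each peak, in order along the gene. Orange bars are the 18 peaks that share a run of at least 16 bases with another Nfat5 peak, grey bars the 14 that share none, and the dashed line is the 39.3% of intron sequence outside peaks. The orange bars all pass 50%, and of the grey ones only peak 27 does.

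The core of the m6A consensus was searched in its GGAC form only, on the gene's strand. GGAC occurred 14 times in the peaks, in 11 of them, with 2 copies each in peaks 8, 21 and 25. That is 1.41 per kb (95% Poisson interval 0.771 to 2.37), against 1.86 per kb (1.54 to 2.23) in intron sequence outside peaks. Of the peaks, 34.4% held it (Wilson 95% interval 20.4 to 51.7%), and of the intron windows 38.0%. The intervals cover counting error only, treat copies and peaks as independent, and overlap. The difference was not tested. The reverse complement GTCC stood at 2.02 per kb in peaks and 1.67 per kb outside. Peaks 6 and 12, those of highest fold, held no GGAC, as the sequence of peak 12 shows. Other forms of the consensus were not counted, so a peak without GGAC can still hold a consensus site.

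Base composition differed little. On the gene's strand peaks were 21.1% G, 18.3% C, 27.9% A and 32.7% T, and the introns outside them 19.1% G, 17.8% C, 30.2% A and 32.9% T.

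Among the 21951 protein-coding genes, 15% had a peak over the gene body and 138 had at least 10. By number of peaks Nfat5 was in place 5. By peaks per 10 kb it was in place 3 of the 138, with 3.72 where their median was 0.960. These places follow from the choice of the gene and are not findings. Of the 138, 28 were shorter than Nfat5, and the median length was 152060 bp. At its length, a peak somewhere in the body is common: 33.9% of genes of 50 to 150 kb had one. Among the 510 genes with at least 5 peaks it was in place 9.

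**Figure D5:**
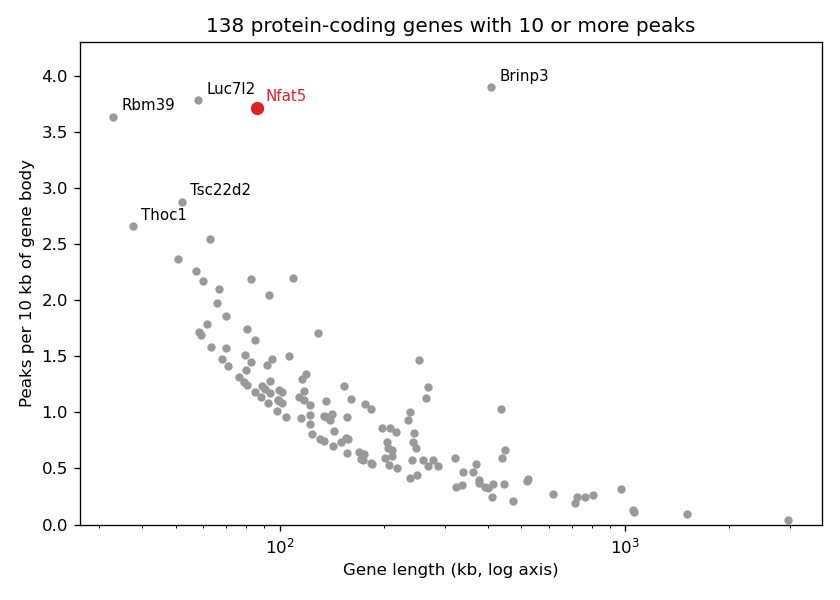
Peaks per 10 kb of gene body against gene length (log axis) for the 138 protein-coding genes with at least 10 peaks. Nfat5 (red) at 3.72 lies in a group of 4 genes above 3.5, with Brinp3, Luc7l2 and Rbm39, and all others lie under 3.

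Genes nearest to Nfat5 in peaks per 10 kb, over 1 peak list, were Luc7l2 (22 peaks, 3.78), Rbm39 (12 peaks, 3.64), Brinp3 (159 peaks, 3.90), Tsc22d2 (15 peaks, 2.88) and Thoc1 (10 peaks, 2.66). Luc7l2 is a component linked to the U1 snRNP, Rbm39 a splicing factor and coactivator, and Thoc1 a subunit of the THO complex of mRNA export. Brinp3 is a gene of the nervous system and Tsc22d2 belongs to the TSC22 domain family. No measure over samples can be had from 1 list, so the likeness is one of density alone.

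Peaks of Nfat5 lay between those of these 5 genes in height. Median pileup was 44.1 in Nfat5, against 69.8 in Luc7l2, 77.4 in Rbm39, 53.1 in Brinp3, 32.4 in Tsc22d2 and 19.4 in Thoc1. Median input background was 8.53 in Nfat5, against 22.5, 22.5, 14.6, 6.0 and 3.36 in the same genes. Median fold enrichment was 4.31 in Nfat5, against 3.21, 3.02, 3.61, 4.91 and 4.02, so only Tsc22d2 was higher. Median spacing was 1477 bp in Nfat5, against 1743, 1792, 1557, 1830 and 1581 bp. Peaks on an exon of a protein-coding transcript were 0 of 32 in Nfat5, against 3 of 22 in Luc7l2, 0 of 12 in Rbm39, 2 of 159 in Brinp3, 0 of 15 in Tsc22d2 and 1 of 10 in Thoc1. The share of exon in the gene was 15.6% in Nfat5, against 10.0%, 9.57%, 1.02%, 18.8% and 11.1%. Nfat5 was thus not alone in having no peak on such exons. None of these differences can be tested with 1 library.

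The relatives and partners of NFAT5 were read from lists chosen with earlier results of these data known, against the 15% of all protein-coding genes. Of 9 genes for Rel homology transcription factors other than Nfat5, 2 had a peak. Nfatc3, a calcineurin-dependent relative, had 8 peaks in 71698 bp, 1.12 per 10 kb, 1 of them on an exon of a protein-coding transcript, with a highest fold enrichment of 7.0 (4.80 to 9.89). Rel, an NF-kappaB subunit, had 1 on such an exon at 3.77 (2.78 to 5.02). Nfatc1, Nfatc2, Nfatc4, Nfkb1, Nfkb2, Rela and Relb had 0. Since Nfat5 was selected on its number of peaks, these counts are not set against its own.

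Of 25 genes of NFAT and calcineurin signalling, 9 had a peak, 36.0%, with a median gene length of 71698 bp. Beside Nfatc3 they included all 3 genes of the calcineurin catalytic subunit: Ppp3ca with 14 peaks and a highest fold of 6.09 (4.59 to 7.92), Ppp3cb with 8 at 6.92 (5.09 to 9.20), and Ppp3cc with 3 at 8.01 (5.35 to 11.6). Rcan2, a calcineurin inhibitor, had 1 at 8.26 (5.09 to 12.8), Gsk3b, a kinase that opposes NFATc in the nucleus, 5 at 6.61 (4.22 to 9.93), and the muscle transcription factor Mef2a 14 at 6.58 (4.88 to 8.70). Input background under these folds was low in Rcan2 (1.08), Gsk3b (2.01) and Ppp3cc (2.05), beside the list median of 5.00. It was 7.0 in Ppp3ca, 5.00 in Ppp3cb and 5.58 in Mef2a. The share was close to the 33.9% of all genes of 50 to 150 kb. Of the 25 peaks of the calcineurin subunits, 1, in Ppp3ca, touched an exon of a protein-coding transcript.

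Upstream regulators of NFAT5 and of cell volume had a peak in 9 of 21 genes, 42.9%, with a median gene length of 44461 bp. All protein-coding genes had one in 15%, and those of 50 to 150 kb in 33.9%. A list of 21 genes of unlike length cannot set 42.9% apart from 33.9%. With only folds of 4 or more, 5 of the 21 had a peak, beside 10.7% of all protein-coding genes. Wnk1, a kinase that senses chloride and volume, had 9 peaks and a highest fold of 9.17 (6.80 to 12.1), and its substrate kinase Oxsr1 had 2 at 5.00 (3.22 to 7.44). Map3k3, an osmotic stress kinase, had 4 at 8.49 (5.47 to 12.6), and Fyn, a tyrosine kinase, 3 at 6.0 (4.12 to 8.48). Dhx9, a helicase that binds NFAT5, had 2 at 3.61 (2.55 to 4.98). Of these 9 genes only Slc12a2, the sodium-potassium-chloride cotransporter, had a peak on an exon of a protein-coding transcript.

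Known NFAT5 targets had a peak in 2 of the 19 genes that matched by name, 10.5%, and their median gene length was 15045 bp. All protein-coding genes had one in 15%, and a list of 19 cannot set the targets apart from that. Hspa4l, an osmotic stress chaperone, had 2 with a highest fold of 4.08 (2.48 to 6.37), and the chemokine Ccl2 had 1 at 2.01 (1.71 to 2.36). The osmolyte genes Akr1b3 (aldose reductase), Slc5a3 (myo-inositol), Slc6a6 (taurine) and Slc6a12 (betaine) had 0. The list gives no expression level, so genes that are not expressed and genes that are expressed without enrichment cannot be told apart.

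Of 20 myotube markers 5 had a peak, 25%, beside 15% of all protein-coding genes, and a list of 20 cannot set these shares apart. These 5 were Ttn, Neb, Tnnt1, Mylpf and Tnni2, while others had 0, among them Myog, Myod1, Des, Ckm, Acta1, Myh3 and Ryr1. With only folds of 4 or more, 2 of the myotube markers had a peak, beside 10.7% of all protein-coding genes. Of 7 myoblast and reserve cell, 4 neuron and 3 immune markers 0 had one, in lists too short to set that apart from 15%. The counts are of peaks over input and not of levels, so they do not check the cell type of the label.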

How the data were processed

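The 1 YTHDF2 RIP library and 1 input library of C2C12 myotubes gave 1 deposited peak list. The authors used Bowtie on mm10 and called peaks with MACS, per the labels' series text. The tools DiffBind, deepTools, HOMER, Picard, Trim Galore and FastQC are listed without version or role, per the submitters' processing notes. The deposited values of each peak are its summit pileup (a signal), its fold enrichment (a ratio on the linear scale) and the −log10 of p-value and q-value, per the file headers. The depth of either library is unknown. All pileups were whole multiples of 0.9 (tolerance 1e-06). Input background was computed as (pileup + 1) / fold − 1. It was a whole number (within 0.01) in 17 of the 32 Nfat5 peaks, but not in others such as peak 12, so it need not be a count of input fragments at the summit. Intervals on folds are exact 95% Poisson intervals of RIP fragments with background held fixed and cover counting error only, since PCR copies are not separate molecules. For the genes of the lists they also leave out that the highest peak of each gene was taken.

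Peaks were placed on GENCODE M21 (GRCm38, the build of mm10) by 1 bp overlap, and sequence was read from GRCm38.p6. Named genes were Nfat5, the 5 genes of nearest and the 3 of highest peaks per 10 kb among those with at least 10 peaks, neighbours, and up to 6 members per list by fold, with members of interest at 0 and list sizes added. A gene and some sequences that this rule or the results would name are not reported here. Members and lists were chosen with earlier results of these data known, and runs of A or T and shared runs after the sequences were seen. Counting was tested on simulated peaks. Alternatives were 3 peak filters, other overlap rules, other exon models and other windows. The authors' gene table served only to see which genes it lists, and their pathway tables, which do not hold Nfat5, were not used. Python 3.11.15, pandas 2.3.3, scipy 1.17.1 and pysam 0.24.0 were used.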

Additional observations from a re-analysis of the deposited data

How the results depend on the processing

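Of 72 alternative values, 48 lay within the 95% interval of the reported value (shares of peaks, genes and masked bases, GGAC per kb, and medians) or within 1.5 times of it (the others), and 24 did not. Within these limits the median summit distance still went to 2510 bp with folds of 4 or more, and the q-value filter left 6 regulators with a peak. With only peaks of a fold enrichment of 4 or more, Nfat5 had 21 peaks, 2.44 per 10 kb, and was in place 1. They covered 7.51% of the gene, and 10.7% of protein-coding genes had a peak. Members with a peak were then 1 Rel homology factor, 1 NFAT5 target, 5 regulators and 2 myotube markers. At or above the list median of 4.40 there were 15 peaks, 1.74 per 10 kb, over 5.74% of the gene, at a median spacing of 4171 bp and a median fold of 4.96. Of protein-coding genes 9.68% had a peak, and of the lists 1 Rel homology factor, 0 NFAT5 targets, 4 regulators and 1 myotube marker. At a q-value of 1e-05 or less 28 Nfat5 peaks were left, 12.3% of protein-coding genes had a peak, and 2 myotube markers. These filters remove peaks by construction. The share of peaks on exons was 0% with exons of protein-coding transcripts only, and place 3 became 9 when genes with at least 5 peaks were ranked. In the 200 bp around each summit 58.2% of bases were masked, and the cause was not tested. Depth limits folds at low background: peak 5 rests on 16 fragments. No paired analysis was possible because each group has 1 library.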
